A study of Homo sapiens with 2 samples.

Results

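ENC 4 is the smallest of 4 numbered subclusters that the authors drew among enteric neural crest cells (ENCCs, annotated ENC) at day 10 of an induction from H9, an established human embryonic stem cell line. Its members were the cells of the day 10 library whose deposited cell type was ENC and whose deposited subtype was ENC 4. There were 187 of them, which is 4.01% (95% Clopper-Pearson interval, 3.46 to 4.61) of the 4665 ENCCs in numbered subclusters, 2.56% of the 7295 day 10 cells that passed the authors' quality limits, and 187 of the 15947 cells in the series. The series held 1 droplet 3′ library of adherent cultures on Geltrex at day 10 and 1 library of free-floating crestospheres at day 15, and neither received a treatment beyond the induction itself. By day 10 the adherent cells had passed from BMP4, SB431542 and CHIR through later crest media, the last with retinoic acid. Each library pooled 2 independent biological repeats, and the deposited annotation does not say which cell came from which repeat, so each library counted as 1 sample.

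The neural crest is a migratory population of the embryo, and its vagal part enters the gut and forms the enteric nervous system. SOX10 and FOXD3 keep crest cells multipotent, ERBB3 and EDNRB receive signals for their survival and spread, and proneural basic helix-loop-helix factors such as NEUROG1 commit single cells to the neuronal fate. Proneural factors switch on the Notch ligands DLL1 and DLL3, which activate Notch in neighbouring cells, and HES1 carries out the repression that keeps those neighbours undifferentiated. NEUROG1 is best known from sensory ganglia and from cranial placodes, the ectodermal thickenings that give rise to sensory neurons of the head.

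Within the day 10 library, ENC 4 was compared with ENC 1 (3001 cells), ENC 2 (1129 cells) and ENC 3 (348 cells), and with the annotated cranial placode cells (CP, 324 cells), neuro-epithelial progenitors (NEP, 1811 cells) and non-neural ectoderm (NNE, 239 cells). Counts of unique molecular identifiers (UMIs) were summed over the cells of a group and expressed as CPM, the count scaled to a common total of all UMIs of the same cells. Differences are log2 ratios of CPM + 1 of ENC 4 over ENC 1 to 3 summed, a scale that understates the change of low genes. The ENC 4 sum held 1381351 UMIs and that of ENC 1 to 3 held 33317210, so that 3 UMIs, taken as the floor, were 2.17 CPM in ENC 4 and 0.090 CPM in ENC 1 to 3. The subclusters were drawn by the authors from these same genes in these same cells and there was 1 library, so no test was possible and all values are descriptions. Poisson and Clopper-Pearson intervals are at 95% and cover counting error only.

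The ENC 4 cells were of ordinary depth. Their UMIs per cell ranged from 3644 to 17705 with a median of 7004, against medians of 7229, 6550 and 6259 in ENC 1, ENC 2 and ENC 3. The median number of detected genes was 1912 in ENC 4 and between 1796 and 1940 in the other subclusters, and the median mitochondrial share was 3.58% against 3.37% to 3.50%. Of the barcodes in the day 10 matrix, 102 also occurred in the day 15 matrix, 5 of them in ENC 4. Doublets were not called beyond the authors' upper limits on genes and UMIs.

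The crest marker was present. SOX10, the marker of the label, stood at 104 CPM in ENC 4 (interval 87.9 to 123), close to its 126, 127 and 128 CPM in ENC 1, ENC 2 and ENC 3 and above its 29.9 CPM in CP and 12.6 CPM in NEP. After each cell was thinned to 3000 UMIs, 28.9% of ENC 4 cells (22.5 to 35.9) held a SOX10 UMI, against 33.0% in ENC 1, 31.7% in ENC 2, 34.8% in ENC 3, 2.45% in NEP and 0.426% in NNE. Before thinning the share in ENC 4 was 49.7%. TFAP2B, a crest and sympathetic transcription factor, was at 612 CPM in ENC 4 and 439 CPM in ENC 1 to 3. The early crest factor FOXD3 was low throughout and lower in ENC 4, at 6.52 CPM (2.98 to 12.4) against 19.7 CPM in ENC 1 to 3. The gap rested on few UMIs and differed by deposited cell cycle phase. Log2 ratios were -0.40 in G1, -4.28 in S and -1.88 in G2M cells, on 7, 0 and 2 UMIs in ENC 4. In G1 cells FOXD3 was at 9.77 CPM (3.93 to 20.1) against 13.2 CPM.

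Of 1990 genes, mitochondrial and ribosomal protein genes left out, with at least 50 CPM and a UMI in at least 10% of cells in ENC 4 or in ENC 1 to 3, 32 were at least 2-fold higher in ENC 4 (1.61%) and 6 were at least 2-fold lower (0.302%). All 38 had Poisson intervals that did not overlap between the 2 sums. At these counts a 2-fold gap alone sets the intervals apart, so this adds no support to the selection. With totals that left out mitochondrial and ribosomal protein genes, 3488 genes entered, of which 47 were higher and 23 lower. At the looser limit of 10 CPM and a UMI in 5% of cells, 119 of 6775 genes were higher (1.76%) and 93 were lower (1.37%). The counts from gene lists below are to be read against these 2 shares. A gene under 10 CPM in 1 of the 2 sums passed through the other sum alone, so its direction was fixed by the limit. The median log2 ratio was 0.02 over the 1990 genes and 0.01 over the 6775. The 2-fold differences were thus few and, among the better detected genes, mostly toward higher levels in ENC 4.

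**Figure D1:**
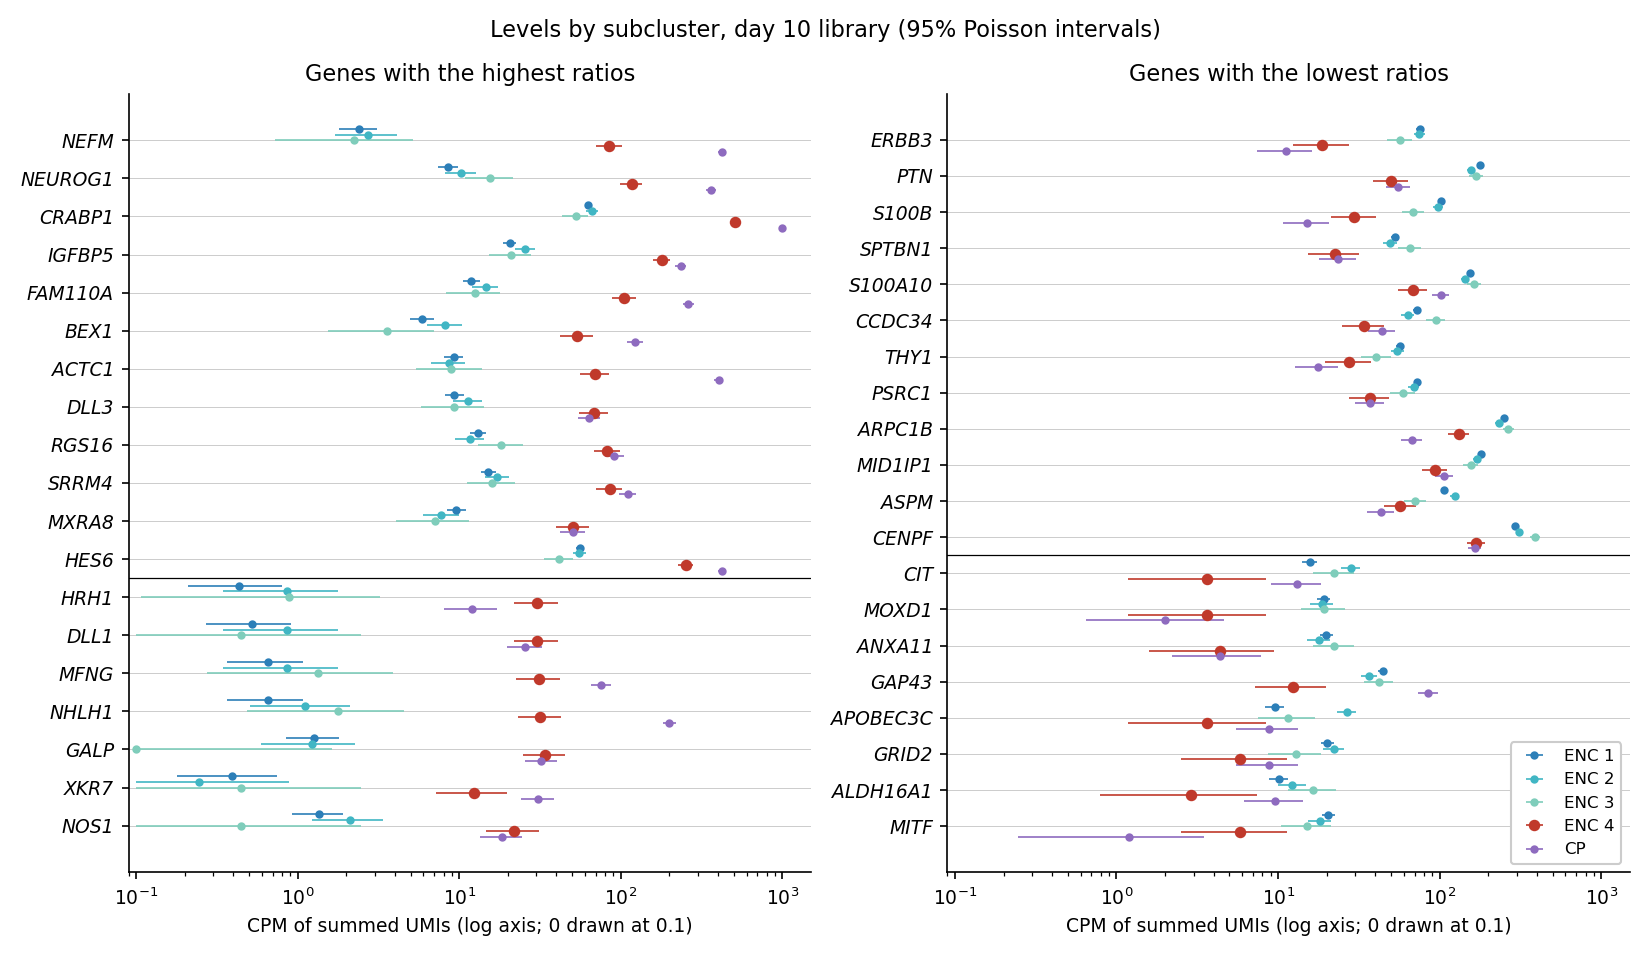
CPM of summed UMIs (log axis) of genes with the highest and the lowest log2 ratios in ENC 1, ENC 2, ENC 3, ENC 4 and CP of the day 10 library, with 95% Poisson intervals; the horizontal line divides genes of at least 50 CPM from those of 10 to 50 CPM. In the left panel the ENC 4 points sit to the right of all 3 other subclusters, with DLL1 at 30.4 CPM against 0.445 to 0.863 CPM, and in the right panel they sit to the left, with ERBB3 at 18.8 CPM against 57.0 to 75.1 CPM.

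NEUROG1, a proneural factor, was at 117 CPM in ENC 4 (99.2 to 136), against 8.54 CPM in ENC 1, 10.2 CPM in ENC 2 and 15.6 CPM in ENC 3, a log2 ratio of 3.50. After thinning, 21.9% of ENC 4 cells (16.2 to 28.5) held a NEUROG1 UMI, compared with 2.57%, 2.66% and 5.46% in ENC 1, ENC 2 and ENC 3, 1.95% in NEP and 0 of 235 cells in NNE, which allows up to 1.28%. Levels in ENC 4 thus lay outside the range of the other subclusters, of which ENC 1 and ENC 2 had shares near that in NEP. CP was higher still, at 362 CPM, with a NEUROG1 UMI in 79.0% of cells before thinning against 39.6% in ENC 4.

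NHLH1, a helix-loop-helix factor of newly born neurons, was at 31.9 CPM in ENC 4 (23.1 to 42.8) and at 0.653, 1.11 and 1.78 CPM in ENC 1, ENC 2 and ENC 3. ENC 4 held 44 UMIs of it, against 28 in the other 3 subclusters together. NOS1, the neuronal nitric oxide synthase of inhibitory enteric neurons, was at 21.7 CPM (14.7 to 31.0) against 1.47 CPM in ENC 1 to 3, and 5.88% of thinned ENC 4 cells held a UMI of it, against 0.400% in ENC 1, 0.709% in ENC 2, 0.167% in NEP and 0 of 348 cells in ENC 3, which allows up to 0.862%.

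The sequence before the gene start is shown for NEUROG1 and for 3 of the genes with the highest ratios whose window held an E-box, the hexamer bound by proneural factors. Windows are from RefSeq (GRCh38.p14), read 5′ to 3′ on the strand of the gene, and cut where the gene begins in GENCODE 29. Capitals mark the hexamer CAGCTG and a second hexamer, CAGATG, each searched on both strands.
NEUROG1, chr5:135535965-135536214, minus strand: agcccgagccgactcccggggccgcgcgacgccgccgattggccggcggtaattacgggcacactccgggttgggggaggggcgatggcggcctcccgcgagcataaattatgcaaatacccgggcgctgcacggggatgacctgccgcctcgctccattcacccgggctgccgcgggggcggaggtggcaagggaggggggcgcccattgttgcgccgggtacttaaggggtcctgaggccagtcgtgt
NHLH1, chr1:160366821-160367066, plus strand: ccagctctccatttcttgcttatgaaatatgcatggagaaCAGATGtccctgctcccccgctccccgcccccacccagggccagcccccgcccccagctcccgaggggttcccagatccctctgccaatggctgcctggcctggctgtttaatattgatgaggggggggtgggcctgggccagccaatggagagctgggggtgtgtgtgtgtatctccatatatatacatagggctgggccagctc
RGS16, chr1:182604409-182604639, minus strand: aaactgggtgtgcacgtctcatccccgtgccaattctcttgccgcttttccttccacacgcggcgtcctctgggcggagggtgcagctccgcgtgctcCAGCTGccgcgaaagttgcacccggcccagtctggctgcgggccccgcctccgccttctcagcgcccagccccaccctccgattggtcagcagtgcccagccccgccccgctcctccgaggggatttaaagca
SRRM4, chr12:118981291-118981494, plus strand: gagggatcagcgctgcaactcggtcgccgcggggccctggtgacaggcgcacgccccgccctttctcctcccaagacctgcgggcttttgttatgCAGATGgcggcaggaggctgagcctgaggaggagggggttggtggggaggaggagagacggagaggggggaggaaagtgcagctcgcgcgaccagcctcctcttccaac
RGS16 encodes a regulator of G protein signalling, and SRRM4 a splicing factor of neuronal microexons. Over the full 250 bases before the RefSeq start, 6 of the 14 named higher genes that were in the RefSeq table held at least 1 of these hexamers. In HES6, NOS1 and HRH1 the match lay inside the gene as drawn in GENCODE 29. At least 1 hexamer was also held by 2 of 13 named lower genes and 24.3% of all 35116 promoters in the table. A match describes the letters of the window and is no evidence of binding, and NEUROG1 held none in this window.

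Of the Notch genes, the ligands DLL1 and DLL3 were higher in ENC 4 and neither measured receptor was 2-fold apart. DLL1 was at 30.4 CPM (21.9 to 41.1) against 0.523, 0.863 and 0.445 CPM in ENC 1, ENC 2 and ENC 3, and DLL3 was at 68.0 CPM (55.0 to 83.3) against 9.32, 11.3 and 9.35 CPM. A UMI of either ligand was found in 80 of 187 ENC 4 cells, and the 5 highest cells held 38.1% of the DLL1 UMIs and 16.0% of the DLL3 UMIs. HES6, a target of proneural factors that counters HES1, was at 253 CPM (227 to 281) against 55.6, 55.4 and 41.4 CPM, and MFNG, a Fringe glycosyltransferase that modifies Notch receptors, at 31.1 CPM against 0.750 CPM in ENC 1 to 3. HES1 was at 7.96 CPM (3.98 to 14.2) in ENC 4 and 16.6 CPM in ENC 1 to 3, a log2 ratio of -0.97, and the receptors NOTCH1 and NOTCH2 had log2 ratios of 0.44 and -0.70. Of 16 Notch pathway genes listed, 7 passed the looser limit, and 3 of these were at least 2-fold higher and 0 at least 2-fold lower. Over all 6775 genes, 1.76% were higher and 1.37% lower. DLL1, DLL3 and MFNG were each under 10 CPM in ENC 1 to 3 and passed through ENC 4 alone, so the limit fixed their direction. HES6 was above the limit in both sums, so its direction was free. The count of higher Notch genes therefore cannot be weighed against the share over all genes.

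Several neuronal genes were higher and others were not detected. NEFM, the medium neurofilament, had the highest ratio of the better detected genes, 84.7 CPM (70.0 to 102) against 2.46 CPM in ENC 1 to 3, but 55.6% of its 117 UMIs in ENC 4 came from 5 cells and the highest cell held 26. For NEUROG1 the 5 highest cells held 24.8% of the UMIs and for HES6 11.2%. The level of NEFM therefore described a few cells and that of HES6 most of the subcluster, with a UMI of HES6 in 134 cells. Among 16 pan-neuronal genes, 7 passed the looser limit. Against 1.76% of all 6775 genes, 4 of these 7 were at least 2-fold higher. They were the RNA-binding proteins ELAVL3 (12.3 against 0.480 CPM) and ELAVL2 (22.4 against 4.202 CPM), the tubulin TUBB3 (13.8 against 2.40 CPM) and doublecortin, DCX (22.4 against 5.31 CPM). All 4 were under 10 CPM in ENC 1 to 3 and passed through ENC 4 alone, so the limit fixed their direction. The growth cone gene GAP43 went the other way, at 12.3 CPM against 42.3 CPM. STMN2, of growing axons, had 4 UMIs, and ELAVL4 and RBFOX3 had 0 UMIs, which allows up to 2.17 CPM.

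Of 14 autonomic and enteric neuron genes, the 3 that passed the looser limit were all at least 2-fold higher, NOS1 among them. Over all 6775 genes 1.76% were, and NOS1 passed through ENC 4 alone, so its direction was fixed by the limit. The other 11 had between 0 and 4 UMIs in the whole of ENC 4, among them HAND2, VIP, CHAT and DBH at 0, PHOX2A at 1 and ETV1 at 2. RET, the GDNF receptor of enteric progenitors, had 0 UMIs in ENC 4 and in each of the other 3 subclusters, whereas its co-receptor GFRA1 was at 39.1 CPM (29.4 to 51.0) against 24.2 CPM. Among 14 sensory neurogenesis genes NEUROG1 alone was at least 2-fold higher of the 2 that passed, the other being PRDM12 at 12.3 and 8.28 CPM. Of 17 HOX genes HOXB2 alone passed the looser limit, at 26.1 CPM (18.3 to 36.1) against 9.004 CPM. NEUROG1, at 9.42 CPM in ENC 1 to 3, PRDM12 and HOXB2 each passed through ENC 4 alone, so the limit fixed their direction.

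Genes of other pathways were also among the highest ratios. CRABP1, which binds retinoic acid in the cytoplasm, was at 512 CPM (475 to 551) in ENC 4 and between 52.5 and 66.0 CPM in the other subclusters. The related CRABP2 was at 1297 against 799 CPM, and of the 10 retinoic acid genes that passed the looser limit only CRABP1 was past 2-fold. IGFBP5, a carrier of insulin-like growth factors, was at 179 CPM against 21.8 CPM, and the neurotrophin receptor NGFR at 225 CPM against 105 CPM. HRH1, the histamine receptor, was at 30.4 CPM against 0.570 CPM, and GALP, galanin-like peptide, at 34.0 CPM against 1.17 CPM. The 5 highest ENC 4 cells held 31.0% of the HRH1 UMIs and 46.8% of the GALP UMIs, and 26 of 187 cells held any GALP. ACTC1, the cardiac actin, was at 68.8 CPM against 9.09 CPM, while 13 of the 16 measured mesoderm and muscle genes were at 0 UMIs in ENC 4. In CP, CRABP1, IGFBP5 and ACTC1 were above their ENC 4 levels, at 997, 235 and 403 CPM, and GALP was at 32.3 CPM. NGFR and HRH1 were lower in CP than in ENC 4, at 109 and 12.0 CPM. In NEP, CRABP1, IGFBP5 and ACTC1 were at 254, 94.0 and 115 CPM. The remaining genes of the highest ratios were FAM110A, BEX1, MXRA8 and XKR7, with log2 ratios of 2.96, 2.90, 2.37 and 3.29. ID1 and ID2, which block helix-loop-helix factors and respond to BMP, were at 90.5 against 36.02 CPM and 88.3 against 36.4 CPM. Both were far higher in NEP (671 and 547 CPM) and in NNE (1537 and 510 CPM).

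Genes lower in ENC 4 included those of glial and melanocyte progenitors. ERBB3, the neuregulin receptor, was at 18.8 CPM (12.3 to 27.6) against 75.1, 74.7 and 57.0 CPM in ENC 1, ENC 2 and ENC 3, a log2 ratio of -1.92. After thinning, 6.95% of ENC 4 cells (3.75 to 11.6) held an ERBB3 UMI, against 19.5%, 19.3% and 14.7%, with 1.84% in NEP. S100B, a glial calcium-binding protein, was at 29.7 CPM (21.3 to 40.3) against 102, 97.7 and 68.5 CPM, and the growth factor PTN at 49.95 CPM against 178, 156 and 169 CPM. ENC 4 thus lay under each of the other subclusters for all 3 genes, with intervals apart. In CP the 3 genes were also lower than in ENC 1 to 3, at 11.2, 15.2 and 55.4 CPM. Over all 6775 genes of the looser limit, 1.37% were at least 2-fold lower and 1.76% higher. Of 16 Schwann precursor and glial genes 9 passed the looser limit, and 4 were at least 2-fold lower (ERBB3, S100B, GAP43 and PMP22) and 1 at least 2-fold higher (NGFR). Of 16 ENC markers 15 passed, with 4 at least 2-fold lower (ERBB3, EDNRB, FOXD3 and CDH6), 0 higher and a median log2 ratio of -0.44. All 3 melanocyte genes that passed, of 10 listed, were at least 2-fold lower, namely EDNRB at 12.3 against 39.1 CPM, MITF at 5.79 against 19.5 CPM and PMEL at 5.79 against 18.4 CPM, each on 17 or fewer UMIs in ENC 4. FOXD3, MITF and PMEL passed through ENC 1 to 3 alone, which fixed their direction. SPTBN1, S100A10 and CCDC34 completed the 6 genes past 2-fold, at 22.4, 68.0 and 34.0 CPM against 53.2, 153 and 71.5 CPM.

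**Figure D2:**
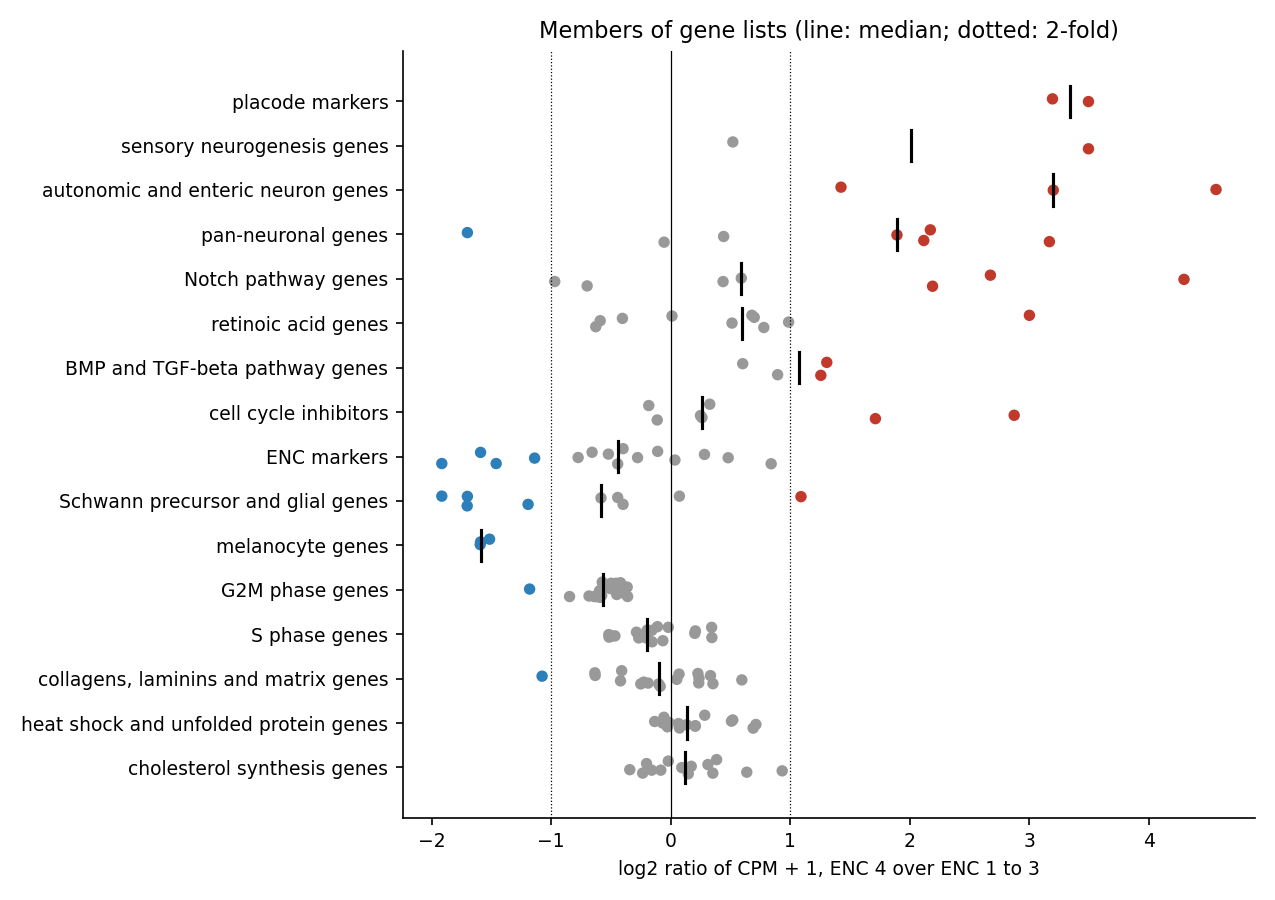
Log2 ratio of CPM + 1, ENC 4 over ENC 1 to 3, of each member of 16 gene lists that passed 10 CPM and a UMI in 5% of cells; red points are at least 2-fold higher, blue at least 2-fold lower, the line is the median of the list. Autonomic and enteric neuron genes lie to the right (3 of 3 higher, of 14 listed). Melanocyte genes lie to the left (3 of 3 lower, of 10 listed), and all 20 G2M genes lie below 0. NOS1 passed through ENC 4 alone, and MITF and PMEL through ENC 1 to 3 alone, so the limit fixed their direction.

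The G1 share of ENC 4 was above that of each other subcluster. By the deposited phases, 56.7% of ENC 4 cells were in G1 (49.3 to 63.9), 25.1% in S and 18.2% in G2M (12.9 to 24.5). G1 shares were 37.7%, 30.6% and 49.4% in ENC 1, ENC 2 and ENC 3, where the interval of ENC 3 (44.1 to 54.8) overlapped that of ENC 4, and 64.5% in CP. When phases were scored again, the G1 share of ENC 4 was 54.5% and that of ENC 3 29.3%, with 63.5% of ENC 3 in G2M in place of 42.0%. All 20 G2M genes listed had a log2 ratio below 0, with a median of -0.57, and 1 of them, the checkpoint kinase BUB1, was at least 2-fold lower. The cell cycle inhibitors GADD45G (44.2 against 5.16 CPM) and CDKN1C (22.4 against 6.15 CPM) were the 2 of 7 measured inhibitors at least 2-fold higher. Over all 6775 genes 1.76% were, and both inhibitors passed the looser limit through ENC 4 alone. CDC25B, the phosphatase that starts mitosis, was higher in ENC 4 despite its smaller G2M share, at 138 CPM (119 to 159) against 36.2 CPM.

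**Figure D3:**
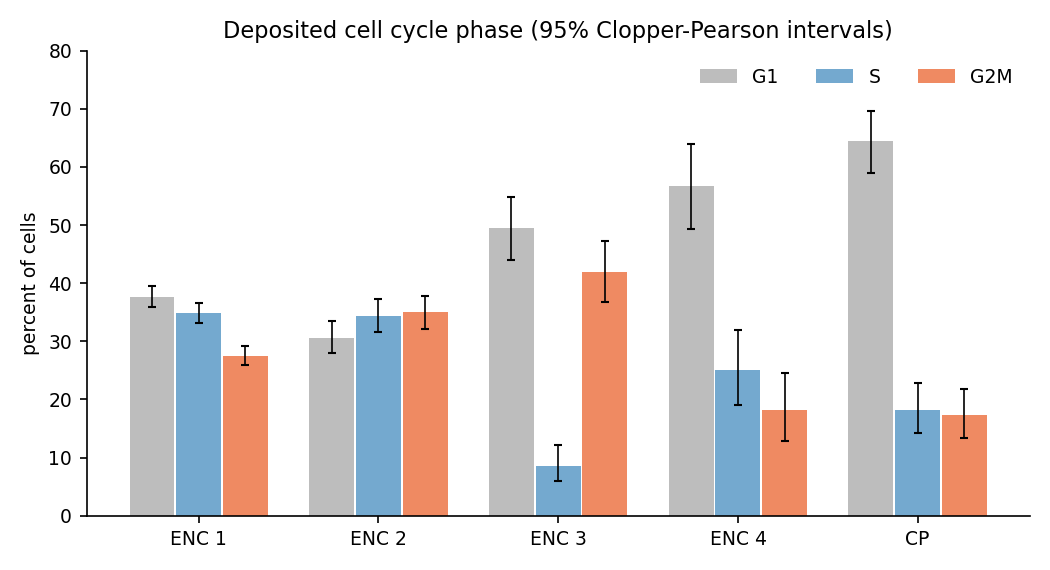
Percent of cells in each deposited cell cycle phase in ENC 1 to ENC 4 and CP, with 95% Clopper-Pearson intervals. ENC 4 shows 56.7% G1 and 18.2% G2M, whereas in ENC 2 the 3 phases are near equal, with 30.6% G1 and 34.99% G2M.

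NEUROG1 was higher, and ERBB3 lower, in each phase. In G1 cells alone (106 in ENC 4 and 1649 in ENC 1 to 3) the log2 ratio of NEUROG1 was 2.77, and in S and G2M cells it was 3.53 and 4.48. For ERBB3 the values were -1.71, -1.98 and -2.47. Levels inside ENC 4 differed with phase for some genes. NEFM was at 131 CPM in G1 cells and 26.4 CPM in G2M cells, and IGFBP5 at 269 and 59.4 CPM, whereas HES6 was at 193 CPM in G1 and 353 CPM in G2M.

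ENC 4 cells were not uniform. NEUROG1 was detected in 74 of the 187 cells. NHLH1 was detected in 23 of these 74 cells and in 7 of the 113 without NEUROG1. NEFM went the other way, with 4 of the 74 cells with NEUROG1 and 30 of the 113 without. EYA2, a placode co-factor, was seen in 13 cells, of which 10 held NEUROG1. Neither NHLH1 (30 cells) nor EYA2 was seen in a cell with NEFM (0 of 34), whereas SOX10 was about as frequent with NEUROG1 (47.3%) as without it (51.3%). Detection in sparse counts is incomplete, so a cell without a UMI may still express the gene.

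**Figure D4:**
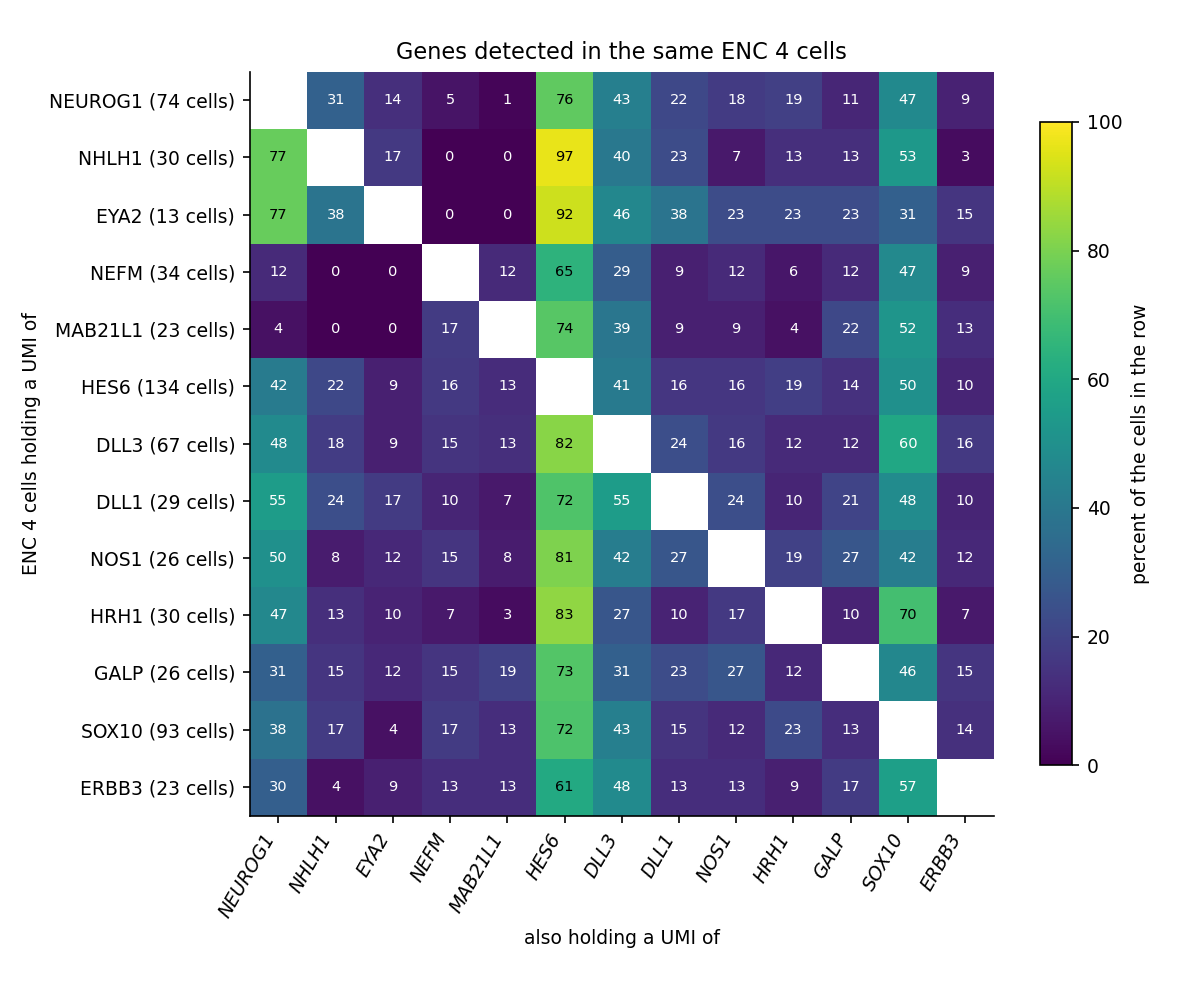
For ENC 4 cells holding a UMI of the gene in a row, the percent that also held a UMI of the gene in a column, without thinning. The NHLH1 row reads 76.7% for NEUROG1 and 0 for NEFM.

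A cell score, the UMIs of the 12 highest-ratio genes of at least 50 CPM per 10000 UMIs, describes how far ENC 4 stood from its neighbours. These genes were chosen for their difference, so the score describes overlap alone. Its median was 13.3 in ENC 4 (range 2.27 to 79.7) and 1.496, 1.49 and 1.51 in ENC 1, ENC 2 and ENC 3. A score at or above the ENC 4 median occurred in 46 of 3001, 17 of 1129 and 4 of 348 of those cells. At least 5 of the 12 genes were detected in 100 of 187 ENC 4 cells and in 36, 19 and 1 cells of the others. In CP cells the median was 28.5 and in NEP cells 5.12.

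**Figure D5:**
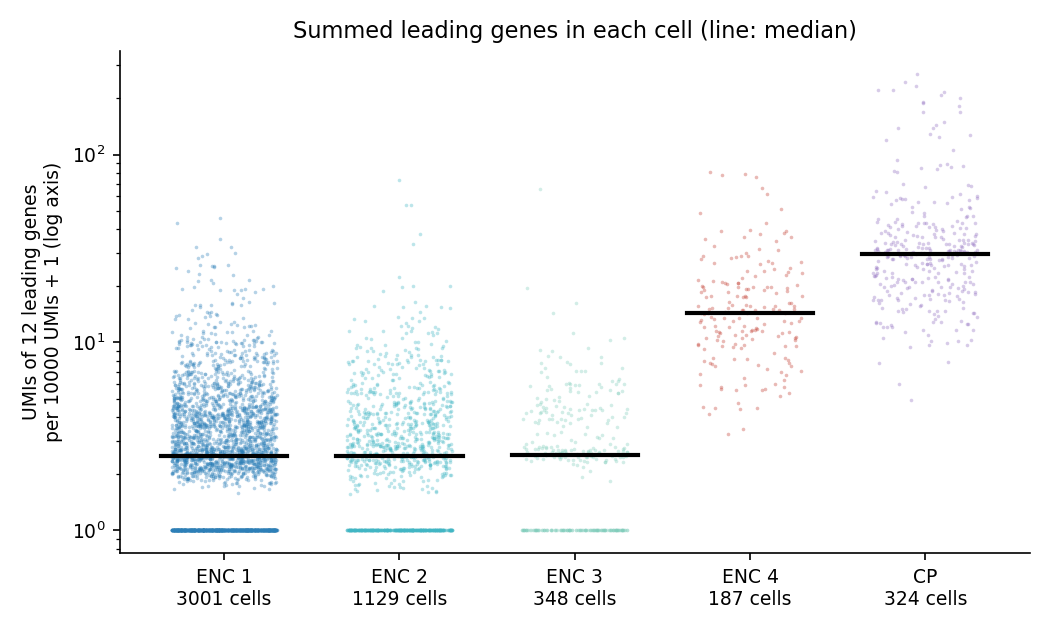
UMIs of the 12 leading genes per 10000 UMIs, plus 1 (log axis), in every cell of ENC 1 to ENC 4 and CP; each point is a cell and the line is the median. ENC 4 (median 13.3) lies between the other ENC subclusters (1.49 to 1.51) and CP (28.5), with overlap on both sides.

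Markers of another cell type moved with this subcluster. The 15 placode markers summed to 196 CPM in ENC 4 (174 to 221), 20.0, 23.8 and 30.3 CPM in ENC 1, ENC 2 and ENC 3, and 1426 CPM in CP. Without NEUROG1 and ONECUT2, the 2 placode markers that passed the looser limit, the sum was 41.3 CPM in ENC 4 (31.3 to 53.5), between 8.54 and 9.87 CPM in the other subclusters and 919 CPM in CP. DLX6, NEUROG2, SST and ELAVL4 were at 0 UMIs in ENC 4. A UMI of any of 7 placode genes, among them EYA2, NEUROD1, POU4F1, ISL1, STMN2 and SST, was found in 33 of 187 ENC 4 cells (17.6%), in 2.73% to 3.16% of cells of the other subclusters and in 81.8% of CP cells. All 32 genes higher at 50 CPM were also at a higher level in CP than in ENC 1 to 3, and 27 of them by at least 2-fold. At the looser limit 95 of the 119 higher genes were at least 2-fold higher in CP, against 231 of all 6775 genes. Of those 231 genes, 26 were below 1.2-fold in ENC 4. All 6 genes lower at 50 CPM, and 77 of the 93 at the looser limit, were also lower in CP than in ENC 1 to 3. The share of all genes merely above or below ENC 1 to 3 in CP was not computed. Across the 1990 genes, log2 CPM + 1 of ENC 4 had a Pearson r of 0.969 with CP, 0.953 with ENC 1, 0.944 with ENC 2, 0.934 with ENC 3 and 0.855 with NEP. These genes were chosen by their level in ENC 4 or ENC 1 to 3, so genes high in CP alone, such as STMN2 at 274 CPM, did not enter. The order of these r values therefore cannot rank CP against ENC 1 in likeness to ENC 4. Genes are not independent replicates, and all groups shared 1 library.

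The ratio of ENC 4 to CP was not constant over genes. ENC 4 stood at 32.2% of the CP level for NEUROG1, 20.0% for NEFM, 15.9% for NHLH1, 3.52% for NEUROD1, 1.06% for STMN2 and 0.607% for POU4F1. SST had 0 UMIs in ENC 4 and 122 CPM in CP, so it was at least 56.0-fold lower than in CP when set against the floor of 3 UMIs. For DLL3, NOS1 and DLL1 the values were 107%, 118% and 119%. Among all 119 genes higher at the looser limit, 11 had an ENC 4 interval wholly above that of CP, and among these, named here after the count was seen, were NGFR, CDC25B, HRH1, ID2, SMOC1, MAB21L1, CXCL12, ST3GAL4, SRM and SFMBT1. Without the 33 cells holding a placode UMI, the 154 that remained gave 33 genes higher and 14 lower at 50 CPM, and 12 of the 12 highest-ratio and 7 of the 12 lowest-ratio genes were the same. The part of placode cells or of doublets in the levels of ENC 4 was not tested beyond these values.

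The genes of ENC 4 were set beside the day 15 library, whose library, stage, culture format and medium cannot be told apart. Of the 20 genes with the highest ratios, 14 were under 5 CPM in each of the 4 day 15 ENC subclusters (ENC 1′ to ENC 4′), and for 16 the day 15 ENC level was under 10% of that in ENC 4. These genes were chosen for their high level in ENC 4, and the same shares over all genes were not computed. In day 10 ENC 1 to 3 they ranged from 0.360 CPM (XKR7) to 63.1 CPM (CRABP1), so low levels were not particular to day 15. GALP had 0 UMIs in these 4 subclusters. NOS1 was at 0.112 to 0.211 CPM and NEUROG1 at 0.0745 to 0.316 CPM in ENC 1′, ENC 2′ and ENC 3′, and all 3 genes had 0 UMIs in the 138 cells of ENC 4′, which allows up to 1.98 CPM. NEFM was between 16.6 and 26.5 CPM in them and at 2376 CPM in the day 15 placode cluster CP1 and 4475 CPM in CP2, and NHLH1 at 400 CPM in CP1. HES6, in contrast, stood between 23.1 and 74.7 CPM in the day 15 ENC subclusters. In ENC 4′, whose name shares only its number, all 20 genes were below their level in ENC 4, the subcluster they were chosen from.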

How the data were processed

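Droplet 3′ libraries (10x Chromium v3.1) of H9 cells at day 10 and day 15 were analysed, 1 library a stage. The deposited matrices hold raw UMI counts over 33694 genes, which the authors made with kallisto and bustools per the study's methods, while the submitters' processing notes name Cell Ranger, GRCh38 and Seurat 4.0.4. The deposited annotation, used as given, holds cell type, subtype and phase for cells within the authors' limits on genes, UMIs and mitochondrial share. Percent values of mitochondrial and ribosomal UMIs per cell were deposited by the authors in that annotation. The authors clustered after regressing out depth, mitochondrial, ribosomal and cell cycle scores, and removed crest cells with high placode genes before clustering the crest again. Phases were also scored again with scanpy 1.11.5.

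Counts were summed per group with Python 3.11.15, numpy 2.4.6, scipy 1.17.1 and pandas 2.3.3, with exact Poisson and Clopper-Pearson intervals at 95%, a pseudocount of 1 CPM and a floor of 3 UMIs. Shares of cells were computed after thinning each cell to 3000 UMIs. The computation was tested on simulated data. Genes named are the 12 highest and 12 lowest ratios at 50 CPM and a UMI in 10% of cells, the 8 highest and 8 lowest at 10 to 50 CPM and 5%, and members of 40 gene lists, and some of them are not reported here. The members and lists were chosen with earlier results of these data known. Alternatives used edgeR 4.0.16 (TMM), DESeq2 1.42.0 (size factors) and Seurat 5.3.0 (a rebuilt clustering), and 2 were chosen after seeing the data. No differential test was run, because there was 1 library a stage and cells are not replicates.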

Additional observations from a re-analysis of the deposited data

How the results depend on the processing

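No paired analysis was possible because there was 1 library a stage. All 40 named genes kept their direction in the 12 other settings. The 32 higher and 6 lower genes became 121 and 93 at 10 CPM without the filter on the share of cells, and were 119 and 93 at 10 CPM with a UMI in 5% of cells, so that the limit in CPM moved them. The lower count was also 23 with totals without mitochondrial and ribosomal protein genes, 12 in G1 cells, 13 with ENC 1, ENC 2 and ENC 3 weighed equally, 17 after thinning and 14 without cells holding a placode UMI. Of the G2M list, 1 gene was lower, against 0 with a pseudocount of 5 CPM, 5 in G1 cells, and 2 with equal weights, after thinning or without placode-UMI cells. Of the Notch list, 0 were lower, against 1 with TMM, size factors, totals without those genes, the mean over cells, G1 cells, equal weights, the rebuilt cluster, or without placode-UMI cells. The placode list had 2 higher, against 4 with totals without those genes, and the pan-neuronal list 4, against 2 after thinning. NEUROD1 turned to -0.25 in G1 cells, and without placode-UMI cells NEUROD1 and EYA2 were at -0.24 and -0.48 by construction. Other causes were not tested.

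Shares of ENC 4 cells with a UMI after thinning to 5000 UMIs, with a UMI without thinning, and with at least 2 UMIs after thinning to 3000 UMIs were 33.9%, 39.6% and 5.35% for NEUROG1, 10.3%, 13.9% and 0.535% for NOS1, and 38.5%, 49.7% and 4.81% for SOX10. For ERBB3 the share was 12.3% without thinning and 0 with at least 2 UMIs after thinning to 3000 UMIs. Levels under 2.17 CPM in ENC 4 rest on fewer than 3 UMIs. In a rebuilt clustering with 17 principal components and a resolution of 0.2, 176 of the 187 cells fell in 1 cluster of 183. At a resolution of 0.3, 181 fell in 1 cluster of 194, and at 0.1 all 4665 cells formed 1 cluster. With 30 components at 0.2, 159 fell in 1 cluster of 167 and 27 in another. Separation of ENC 4 thus depended on the setting.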

Other observations

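For other gene groups, counts are to be read against all 6775 genes, of which 1.76% were at least 2-fold higher and 1.37% lower, so that a count of 0 in a short list is near the background. Of the genes that passed the looser limit, 0 of 15 heat shock and unfolded protein genes, 0 of 14 cholesterol synthesis genes, 0 of 12 glycolysis and hypoxia genes, 0 of 9 interferon and MHC class I genes, 0 of 8 p53 and apoptosis genes and 0 of 7 pluripotency genes were 2-fold apart, with median log2 ratios of 0.13, 0.12, 0.30, 0.19, 0.02 and -0.21. Of 18 collagen, laminin and matrix genes 1 was at least 2-fold lower, and the median was -0.09. Of 8 axon guidance and migration genes 3 were at least 2-fold higher (NRP1, CXCR4 and CXCL12) and the median was 0.95. CXCL12, at 7.86 CPM in ENC 1 to 3, passed through ENC 4 alone, so the limit fixed its direction. The 7 replication histones that passed had a median of -0.57, with 0 of them 2-fold apart.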
